A study of Mus musculus with 6 samples.

Results

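The genes described here are 34 transcripts by which macrophages and other leukocytes are commonly recognised, measured in cultures of neonatal mouse cardiomyocytes. A listed gene was kept when its counts summed to at least 10 over the 6 libraries, and 28 of the 34 met this rule, of 32245 gene symbols in all. Just inside the rule were Lyve1 with 11 counts and F13a1 with 13, and just outside it was Cd52 with 9. The others outside were Cx3cr1 (2 counts), Aif1 (1), Cd163, Ccr2 and Timd4 (0 each). Of the 28 genes, 20 also passed the low-count filter of the test, and C1qa, C1qb, Ptprc, Tyrobp, Fcgr1, F13a1, Coro1a and Lyve1 did not and are given as values without a test.

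Polyadenylated RNA of wild type primary cardiomyocytes was sequenced after treatment with the vehicle PBS, with bone morphogenetic protein 2 (BMP2), or with BMP2 and dorsomorphin (BMP2+DM). Dorsomorphin inhibits BMP receptors and also the kinase AMPK. There were 2 libraries per group and no group with dorsomorphin alone. Neither dose nor duration, strain or purity of the preparation was given. The labels do not say whether the 2 libraries of a group came from separate cultures, so p-values measure only the spread between these libraries, which may be technical.

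Macrophages live in the healthy heart among the muscle cells and depend on the receptor encoded by Csf1r, which binds the growth factors CSF1 and IL-34, and on the transcription factor PU.1, encoded by Spi1. They take up dying cells and debris, digest them in lysosomes, and make complement, chemokines and reactive oxygen. Primary heart cell cultures commonly carry non-muscle cells along with the muscle cells.

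As a check of the labelled cell type, Actc1, the gene of cardiac actin, averaged 2911 CPM per kilobase of exon over the 6 libraries and Myh6, the main cardiac myosin heavy chain, 1951. CPM are counts scaled to the TMM-adjusted library size of each library. Counts on genes lay between 10106667 and 14366042 per library, so that 3 counts, taken as the detection floor, correspond to 0.214 to 0.292 CPM. The libraries PBS 1 and BMP2 1 stood apart: the ribosomal-repeat gene models Gm42418 and AY036118 took 1.31% and 2.10% of their gene counts, against 0.0702% to 0.0928% in the other 4. The 28 genes held 1064 to 2320 counts per library, or 0.0105% to 0.0162% of gene counts, and the exact numbers behind each gene are therefore given as counts.

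Promoter sequences are shown for 3 of the genes called lower under BMP2, to place letters of known myeloid binding motifs beside the values that follow. The 3 are those called genes in which such letters were found. Lyz2, Itgb2 and Ms4a7, also called lower, had no match or no promoter sequence at hand. GAGGAAGT is a core form of the motif bound by PU.1, and GAAA, 2 bases of any kind and GAAA make a form of the motif bound by interferon regulatory factors (IRF). RefSeq promoters (GRCm38.p6, 250 bases before to 50 after a gene's start) were at hand for 21 of the 28 genes, as 27 sequences, and were searched on both strands. The PU.1 letters were present in 5 of the 27 (18.5%; C1qc, Cd53, Ctss, F13a1 and Pf4), and in 1052 of all 32851 promoters (3.20%). The IRF letters were present in 2 of the 27 (7.41%; Ctss and Cybb), and in 1131 of all 32851 (3.44%). A match describes letters only and is not a binding site. Each sequence runs 5′ to 3′ on the gene's own strand, from 250 bases before the start to 10 after it, with matches in capitals.
Ctss (chr3:95526536-95526795, plus strand; IRF at -21 to -12 and the PU.1 letters on the opposite strand at -2 to 6): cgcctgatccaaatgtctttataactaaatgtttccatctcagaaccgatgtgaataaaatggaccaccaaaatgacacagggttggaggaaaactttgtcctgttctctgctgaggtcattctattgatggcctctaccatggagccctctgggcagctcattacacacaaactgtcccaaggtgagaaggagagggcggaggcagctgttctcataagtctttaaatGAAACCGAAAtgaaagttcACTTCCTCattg
Pf4 (chr5:90772185-90772444, plus strand; the PU.1 letters on the opposite strand at -10 to -3): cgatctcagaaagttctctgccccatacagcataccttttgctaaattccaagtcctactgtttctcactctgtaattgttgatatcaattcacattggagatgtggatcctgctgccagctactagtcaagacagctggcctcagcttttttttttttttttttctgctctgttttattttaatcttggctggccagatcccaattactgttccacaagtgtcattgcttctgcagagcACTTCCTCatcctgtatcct
Cybb (chrX:9469315-9469574, minus strand; IRF letters at -168 to -159 and -124 to -115 on the opposite strand, and at -29 to -20): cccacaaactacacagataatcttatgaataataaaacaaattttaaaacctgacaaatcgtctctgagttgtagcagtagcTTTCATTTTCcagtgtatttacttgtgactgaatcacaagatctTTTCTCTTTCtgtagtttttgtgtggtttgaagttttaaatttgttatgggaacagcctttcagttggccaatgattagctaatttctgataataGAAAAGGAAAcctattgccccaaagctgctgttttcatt
In Ctss the IRF and PU.1 letters stand within the same short stretch around the start, whereas Cybb, on chromosome X, holds IRF letters at 3 places and none of the PU.1 letters searched.

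Transcripts of the listed genes were present in every library, at very unequal levels. In the PBS libraries the highest, per length, was Lyz2, which encodes lysozyme, at 45.8 and 43.2 CPM per kilobase of exon, followed by Pf4, a chemokine gene, at 19.03 and 17.63. Ctss, Cd68 and Csf1r came next, with PBS means of 5.61 ± 0.855, 4.61 ± 1.22 and 2.92 ± 0.031 (SD, n = 2). The spreads of Ctss and Cd68 overlapped, so their order is not settled. At the low end were Lyve1, F13a1 and Ptprc, and Ptprc, which encodes the pan-leukocyte antigen CD45, averaged 0.017 over the 6 libraries. The name macrophage genes, used below, refers to the list only. Which cells made the more abundant of these transcripts was not tested.

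**Figure D1:**
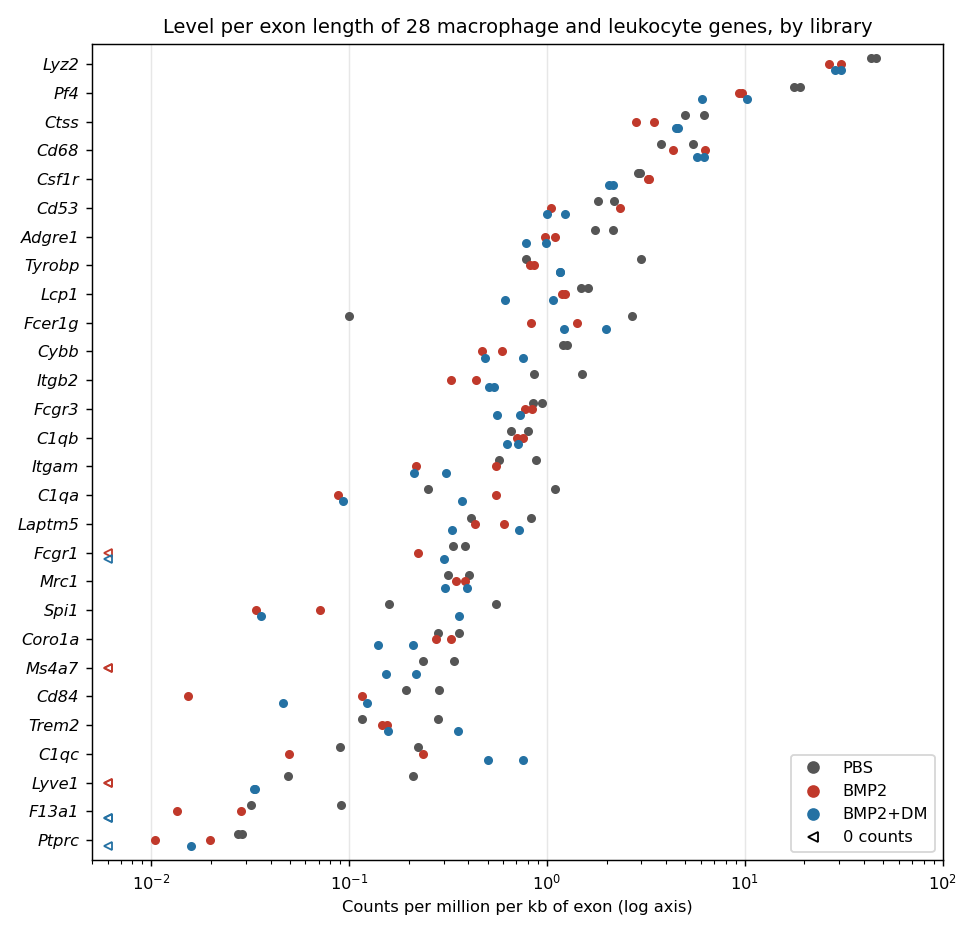
Level of each of the 28 genes in each library, in CPM per kilobase of exon on a log axis; each point is 1 library, coloured by treatment, and open triangles mark libraries with 0 counts. Lyz2 at 45.8 and 43.2 in PBS lies far above the rest, and Ms4a7 and Lyve1 have 0 counts in both BMP2 libraries.

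Summed over the 28 genes, the level was 166 and 153 CPM in the PBS libraries, 111 and 108 CPM in the BMP2 libraries, and 104 and 103 CPM in the BMP2+DM libraries. Both PBS libraries lay above all 4 treated libraries. The BMP2 mean was 68.8% of the PBS mean, the BMP2+DM mean was 65.2% of it, and the BMP2+DM mean was 94.8% of the BMP2 mean. Lyz2 alone made up a large part of the sum, and without it the order of the groups was the same, with 106 and 95.8 CPM in PBS, 70.8 and 73.3 in BMP2, and 64.2 and 65.7 in BMP2+DM. In bulk RNA, fewer cells of a type and less RNA per cell cannot be told apart.

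With BMP2, 6 macrophage genes fell against PBS: Lyz2, Pf4, Cybb, Ctss, Itgb2 and Ms4a7. Of the 20 tested genes, 6 (30%) fell and 0 rose by the quasi-likelihood test of edgeR at an adjusted p under 0.05, against 9.29% of all 14378 tested genes called lower and 6.55% called higher. At an unadjusted p under 0.05 the numbers were 9 lower and 0 higher, and DESeq2 called 3 lower and 0 higher. The fitted change was negative in 17 of the 20, with a median log2 fold change of -0.51, beside a median of 0.0044 over all tested genes. The groups did not overlap, with BMP2 lower, in 12 of the 20, against 28% of all tested genes. C1qc, Cd84, Ms4a7, Spi1 and Trem2 passed the low-count filter only through the groups where they are high, which bears on all counts over the 20. Over the other 15 genes, 5 fell and 0 rose, with a median log2 fold change of -0.37. Without PBS 1 and BMP2 1 the count was 0 of 20, and 3.90% of all genes were then called.

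With dorsomorphin added, few of these genes differed from BMP2 alone past the threshold. In BMP2+DM against BMP2, 1 gene rose (Ms4a7) and 1 fell (Csf1r) of 20, against 8.73% of all tested genes called, 4.28% higher and 4.44% lower, and the median log2 fold change was 0.11. Over the 15 genes that passed the filter through every group, 0 rose and 1 fell, and the median was -0.061, on the other side of 0. Against PBS, BMP2+DM had 5 genes lower (25%; Lyz2, Pf4, Cybb, Lcp1 and Adgre1) and 0 higher, against 11.5% and 9.38% of all tested genes. At an unadjusted p under 0.05 there were 8 lower and 1 higher, and DESeq2 called 3 lower and 0 higher. The median log2 fold change was -0.61, 16 of 20 were negative, and BMP2+DM lay below PBS without overlap in 13 of 20, against 29.5% of all tested genes. Without PBS 1 and BMP2 1 the counts were 0 of 20 for BMP2+DM against BMP2 and 1 for BMP2+DM against PBS, so that the fall of Lyz2 in BMP2+DM was the 1 call among the 28 genes that held without both. The 3 comparisons share libraries, so the calls against PBS are not independent of each other.

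**Figure D2:**
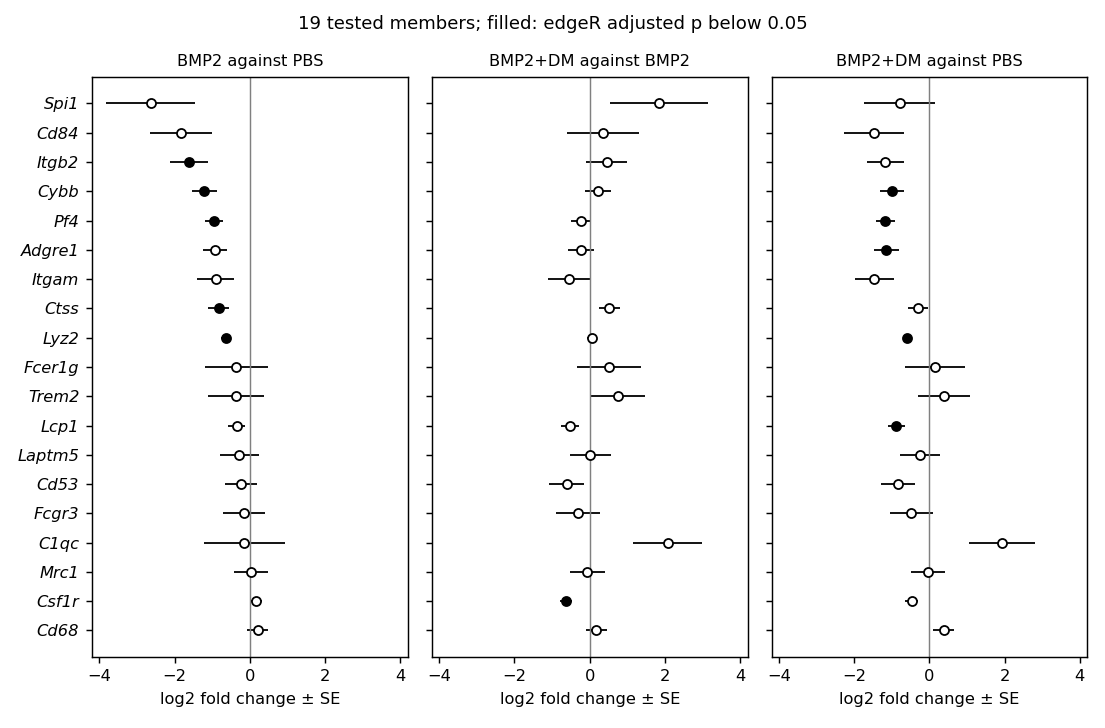
Log2 fold change ± standard error of 19 tested genes in the 3 comparisons (Ms4a7, with 0 counts in both BMP2 libraries, is left out); filled points passed the adjusted threshold of 0.05 in edgeR. In BMP2 against PBS and BMP2+DM against PBS most points lie left of 0, and between the 2 BMP2-treated groups the 1 filled point is Csf1r at -0.63.

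Among the lineage genes, Adgre1, which encodes the macrophage surface protein F4/80, had 98 and 65 counts in PBS, 39 and 33 in BMP2, and 33 and 26 in BMP2+DM. Both PBS libraries were above every treated library, and the BMP2 and BMP2+DM libraries overlapped in CPM. Adgre1 fell in BMP2+DM against PBS (log2 fold change -1.15 ± 0.33, edgeR adjusted p = 0.0186), while the change in BMP2 against PBS, -0.92 ± 0.32, missed the threshold (adjusted p = 0.0612). With DESeq2 the BMP2+DM call was lost (adjusted p = 0.0714), as it was without PBS 1 (adjusted p = 0.157) and without BMP2+DM 2 (adjusted p = 0.105).

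Csf1r had its highest values in BMP2. It had 16.7 and 17.0 CPM in PBS, 18.6 and 18.9 in BMP2, and 11.8 and 12.4 in BMP2+DM, from 122 to 234 counts per library. The BMP2 libraries were the highest and the BMP2+DM libraries the lowest, with no overlap between any 2 groups. Csf1r fell 1.55-fold in BMP2+DM against BMP2 (log2 fold change -0.63 ± 0.17, edgeR adjusted p = 0.0246). The log2 difference was 0.16 ± 0.16 in BMP2 against PBS (adjusted p = 0.589) and -0.47 ± 0.17 in BMP2+DM against PBS (adjusted p = 0.0530). The call was lost with DESeq2 (adjusted p = 0.0804) and without each BMP2 or BMP2+DM library in turn (adjusted p from 0.0788 to 0.110), with log2 fold changes between -0.67 and -0.60 in all of these fits. Of the exonic bases of Csf1r, 15.1% overlap the opposite-strand gene Hmgxb3, and no strand setting of the counting is given in the sources used here. Hmgxb3 had 547 to 760 counts per library and was not called in any of the 3 comparisons (adjusted p = 0.122, 0.701 and 0.309).

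The other 2 lineage genes were sparse. Spi1, the gene of PU.1, had 6 and 17 counts in PBS, 1 and 2 in BMP2, and 1 and 10 in BMP2+DM. The PBS libraries were above the BMP2 libraries, while the 2 BMP2+DM libraries lay far apart. The log2 difference in BMP2 against PBS was -2.64 ± 1.18 (edgeR adjusted p = 0.150). Ptprc had 7 and 6 counts in PBS, 4 and 2 in BMP2, and 3 and 0 in BMP2+DM, too few for a test.

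Among genes of the lysosome and of oxidative killing, 3 of 5 fell in BMP2 against PBS, against 9.29% of all tested genes called lower. These 5 are part of the 20 tested genes counted above. Lyz2 had 843 and 653 counts in PBS, 441 and 366 in BMP2, and 415 and 388 in BMP2+DM, or 60.2 and 56.9 CPM, 40.1 and 34.9 CPM, and 40.2 and 37.7 CPM. Both PBS libraries stood well above the 4 treated libraries, which overlapped with each other. Lyz2 fell 1.56-fold in BMP2 against PBS (log2 fold change -0.64 ± 0.11, edgeR adjusted p = 6.59e-04) and 1.504-fold in BMP2+DM against PBS (-0.59 ± 0.11, adjusted p = 0.0011). Between BMP2+DM and BMP2 the log2 difference was 0.05 ± 0.12 (adjusted p = 0.850). The fall in BMP2 was called in 12 of 13 alternative analyses and was lost without PBS 1 and BMP2 1 together (-0.70, adjusted p = 0.0609), and the fall in BMP2+DM was called in 13 of 13. Lyz1, a closely similar gene next to Lyz2, had 2 counts in all 6 libraries together.

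Cybb, which encodes the catalytic subunit of the phagocyte NADPH oxidase, had 7.29 and 6.96 CPM in PBS, 2.73 and 3.44 in BMP2, and 2.81 and 4.37 in BMP2+DM. The PBS libraries again lay above all treated libraries. Cybb fell 2.31-fold in BMP2 (log2 fold change -1.21 ± 0.32, edgeR adjusted p = 0.0147) and 1.98-fold in BMP2+DM against PBS (-0.99 ± 0.32, adjusted p = 0.0339), with 0.22 ± 0.34 between the treated groups (adjusted p = 0.773). DESeq2 did not make the BMP2 call (adjusted p = 0.0513), and it was lost without PBS 1 (0.0986), PBS 2 (0.0737) or BMP2 1 (0.107) as adjusted p. Nor did DESeq2 make the BMP2+DM call (adjusted p = 0.120), which was lost without PBS 1 (0.155), PBS 2 (0.120) or BMP2+DM 1 (0.215).

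Ctss, which encodes the lysosomal protease cathepsin S, had 8.43 and 6.79 CPM in PBS, 4.73 and 3.82 in BMP2, and 6.10 and 6.22 in BMP2+DM. The 3 groups did not overlap, and BMP2+DM lay between PBS and BMP2. Ctss fell 1.78-fold in BMP2 against PBS (log2 fold change -0.83 ± 0.27, edgeR adjusted p = 0.0439). The difference of 0.52 ± 0.28 between BMP2+DM and BMP2 missed the threshold (adjusted p = 0.293), as did -0.31 ± 0.26 between BMP2+DM and PBS (adjusted p = 0.455). For Ctss the BMP2 call was lost with DESeq2 (adjusted p = 0.157) and without PBS 1 (0.275), PBS 2 (0.0778), BMP2 1 (0.0792) or BMP2 2 (0.220) as adjusted p.

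Cd68, which encodes a lysosomal membrane glycoprotein widely used as a macrophage stain, showed no such order. It had 66 and 79 counts in PBS, 60 and 83 in BMP2, and 81 and 74 in BMP2+DM. In CPM the PBS and BMP2 libraries overlapped, and BMP2+DM lay above PBS. The log2 difference in BMP2 against PBS was 0.21 ± 0.28 (edgeR adjusted p = 0.683). Laptm5, a lysosomal membrane protein gene of blood cells, had 13 to 44 counts per library, and was not called in any comparison.

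**Figure D3:**
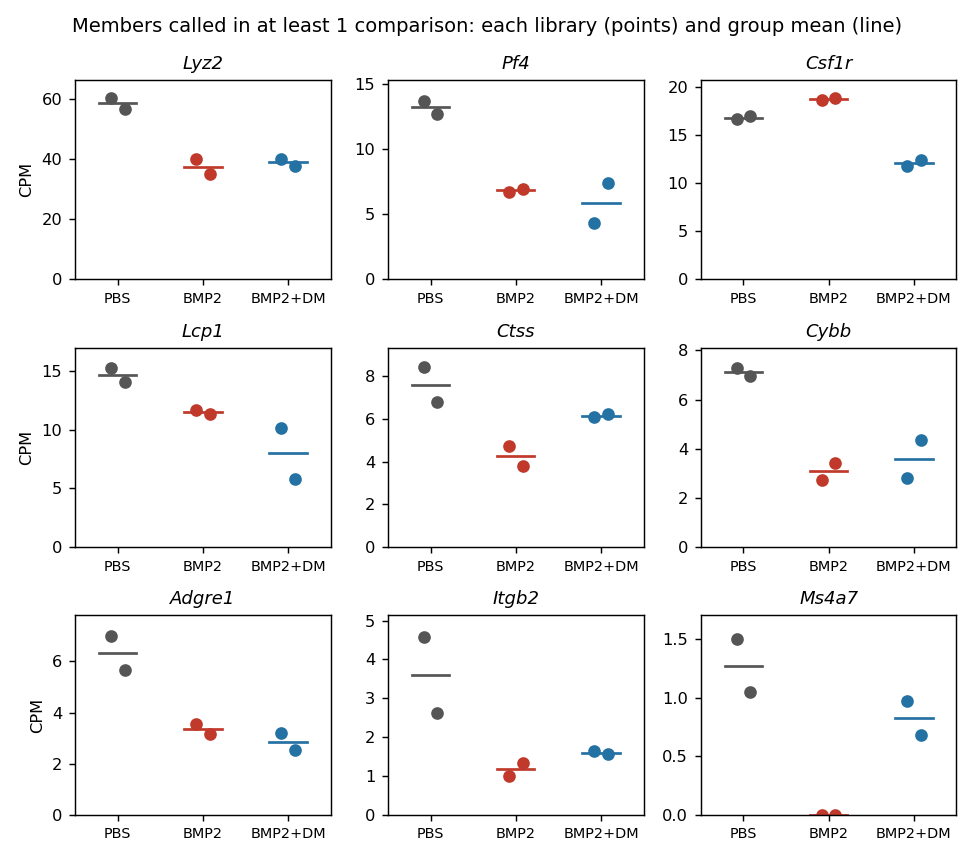
Level in CPM (linear axes from 0) of the 9 genes past the threshold in at least 1 comparison; points are single libraries and lines are group means. For Lyz2, Pf4, Cybb and Adgre1 both PBS points lie above all treated points, Csf1r is lowest in BMP2+DM at 11.8 and 12.4, and Ms4a7 is at 0 in both BMP2 libraries.

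Genes counted here with resident macrophages were led by Pf4. This gene encodes the chemokine CXCL4, known from platelets and also expressed by tissue macrophages. Pf4 had 192 and 146 counts in PBS, 74 and 73 in BMP2, and 45 and 76 in BMP2+DM, or 13.7 and 12.7 CPM, 6.73 and 6.97 CPM, and 4.36 and 7.39 CPM. PBS stood above all treated libraries, and BMP2+DM spanned the BMP2 values. Pf4 fell 1.93-fold in BMP2 (log2 fold change -0.95 ± 0.24, edgeR adjusted p = 0.0114) and 2.25-fold in BMP2+DM against PBS (-1.17 ± 0.25, adjusted p = 0.0022), with -0.22 ± 0.26 between the treated groups (adjusted p = 0.691). For Pf4 the BMP2 call was lost without PBS 1 (adjusted p = 0.095), PBS 2 (0.0553), BMP2 1 (0.0696) or BMP2 2 (0.0562). Its BMP2+DM call was lost without PBS 1 and BMP2 1 together (adjusted p = 0.0805). Of the megakaryocyte and platelet genes, Gp1bb was at 0 in every library, Gp9 was at 0 in 5 of them, and most counts came from Itga2b (120 in all) and Gp1ba (54). The summed level of the list was 2.36 and 4.53 CPM in PBS, 2.55 and 3.34 in BMP2, and 2.52 and 1.65 in BMP2+DM.

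Ms4a7, a member of the membrane-spanning MS4A family marking macrophages, had 21 and 12 counts in PBS, 0 and 0 in BMP2, and 10 and 7 in BMP2+DM. Every PBS and BMP2+DM library had counts, and both BMP2 libraries had none. The gene passed the low-count filter only through PBS and BMP2+DM, so it was tested because it is high there. Over the group, with 0 counts set to the floor of 3, the level was at least 9.27-fold lower in BMP2 than in PBS (edgeR adjusted p = 0.0048) and at least 5.90-fold higher in BMP2+DM than in BMP2 (adjusted p = 0.0265). The log2 difference between BMP2+DM and PBS was -0.63 ± 0.71 (adjusted p = 0.594). For Ms4a7 the BMP2 call was lost without PBS 1 (adjusted p = 0.059). Its call in BMP2+DM against BMP2 was lost in each of the 6 fits without 1 library: without PBS 1 (0.071), PBS 2 (0.0589), BMP2 1 (0.144), BMP2 2 (0.128), BMP2+DM 1 (0.111) and BMP2+DM 2 (0.0597) as adjusted p.

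Relatives of Ms4a7 were looked up after its values were seen. Ms4a4d had 99 and 90 counts in PBS, 58 and 50 in BMP2, and 67 and 78 in BMP2+DM, Ms4a6c had 3 and 5, 0 and 1, and 6 and 7, and Ms4a6d had 12 and 13, 12 and 0, and 5 and 14. Ms4a4d and Ms4a6c were lower in BMP2 than in both other groups without overlap. Of all tested genes, 28% lay lower in BMP2 than in PBS without overlap, and 25.4% lay higher in BMP2+DM than in BMP2. Ms4a6d overlapped between the groups and was at 0 in 1 BMP2 library. Ms4a4d was not called in any comparison (edgeR adjusted p = 0.154, 0.299 and 0.865). Nor was Ms4a6d (edgeR adjusted p = 0.63, 0.73 and 0.958), and Ms4a6c was too low for a test.

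Mrc1, which encodes the mannose receptor CD206 of resident macrophages, was level across the groups in its values, with 36 and 23 counts in PBS, 27 and 23 in BMP2, and 26 and 20 in BMP2+DM. All groups overlapped in CPM, and the log2 difference in BMP2 against PBS was 0.02 ± 0.45 (edgeR adjusted p = 0.987). Lyve1, a hyaluronan receptor gene of resident macrophages and of lymphatic endothelium, had 2 and 7 counts in PBS, 0 and 0 in BMP2, and 1 and 1 in BMP2+DM. F13a1, the gene of coagulation factor XIII A, had 3 and 7, 1 and 2, and 0 and 0. Both were too low for a test. The summed level of the other lymphatic endothelial markers, mostly Pdpn and Prox1, was 115 and 113 CPM in PBS, 120 and 124 in BMP2, and 142 and 136 in BMP2+DM. Their part in the Lyve1 counts was not tested.

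The leukocyte integrin genes had their highest values in PBS. Itgb2 encodes CD18, the shared beta chain of leukocyte integrins, and had 64 and 30 counts in PBS, 11 and 14 in BMP2, and 17 and 16 in BMP2+DM. The PBS libraries differed from each other but lay above all treated libraries. Itgb2 fell 3.08-fold in BMP2 (log2 fold change -1.62 ± 0.50, edgeR adjusted p = 0.0328), and the difference of -1.17 ± 0.48 in BMP2+DM against PBS missed the threshold (adjusted p = 0.0966), as did 0.45 ± 0.54 between the treated groups (adjusted p = 0.693). The call was lost with DESeq2 (adjusted p = 0.0927) and without PBS 1 (0.360), BMP2 1 (0.172) or BMP2 2 (0.0844) as adjusted p. Itgam, which encodes the partner chain CD11b, had 40 and 51 counts in PBS, 12 and 29 in BMP2, and 11 and 16 in BMP2+DM, with log2 differences of -0.91 ± 0.50 (adjusted p = 0.251) and -1.46 ± 0.52 (adjusted p = 0.0564) against PBS. Of its exonic bases, 68.7% lie within the same-strand model Gm49368, which the count files do not list. Whether Itgam reads were shared with another model was not tested.

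Lcp1, which encodes the actin-bundling protein L-plastin of leukocytes, was lowest in BMP2+DM. It had 214 and 162 counts in PBS, 129 and 119 in BMP2, and 105 and 60 in BMP2+DM, or 15.3 and 14.1 CPM, 11.7 and 11.4 CPM, and 10.2 and 5.83 CPM. The 3 groups did not overlap. Lcp1 fell 1.84-fold in BMP2+DM against PBS (log2 fold change -0.88 ± 0.23, edgeR adjusted p = 0.0105), and the differences of -0.35 ± 0.22 in BMP2 against PBS (adjusted p = 0.332) and -0.53 ± 0.24 between the treated groups (adjusted p = 0.197) missed the threshold. The call was lost without PBS 1 (adjusted p = 0.0825) and without BMP2+DM 2, where the log2 fold change was -0.53 (adjusted p = 0.151). Cd53, a leukocyte tetraspanin gene, had 18 to 53 counts per library, and Coro1a, the gene of the actin regulator coronin 1A, 4 to 14, with no call for Cd53 and no test for Coro1a.

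Genes of Fc receptors and their signalling adaptors were sparse and uneven between libraries. Tyrobp, the gene of the adaptor DAP12, had 28 and 6 counts in PBS, 6 and 6 in BMP2, and 8 and 8 in BMP2+DM. Fcer1g, the gene of the Fc receptor gamma chain, had 33 and 1 in PBS, 8 and 13 in BMP2, and 18 and 11 in BMP2+DM. In both genes the library PBS 1 stood far above PBS 2, and the treated libraries fell within the PBS range or at its edge. The Fcer1g log2 difference in BMP2 against PBS, -0.37 ± 0.84 (edgeR adjusted p = 0.828), turned to 3.33 without PBS 1. Over all 28 genes, PBS 1 had the higher CPM of the PBS pair in 19 and PBS 2 in 9.

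The remaining genes of this group were Fcgr3, Fcgr1, Trem2 and Cd84. Fcgr3, a low-affinity receptor for IgG, had 10 to 23 counts per library, and Trem2, a lipid-sensing receptor that signals through DAP12, had 8 to 18. Fcgr1, the high-affinity IgG receptor, had 14 and 10 counts in PBS, 0 and 6 in BMP2, and 0 and 8 in BMP2+DM. Cd84, a receptor of the SLAM family, had 25 and 14 counts in PBS, 8 and 1 in BMP2, and 8 and 3 in BMP2+DM. Cd84 was higher in PBS than in every treated library, and its log2 difference in BMP2 against PBS was -1.83 ± 0.82 (edgeR adjusted p = 0.151). None of Fcgr3, Trem2, Cd84 and Fcer1g was called in any of the 3 comparisons.

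The 3 genes of complement C1q, which lie side by side on chromosome 4 and encode the chains of the first component of the classical pathway, differed in how their values ordered the groups. C1qa had 16 and 3 counts in PBS, 1 and 6 in BMP2, and 4 and 1 in BMP2+DM, and C1qb had 10 and 10, 9 and 8, and 8 and 7. C1qc had 6 and 2, 5 and 1, and 15 and 10, so that BMP2+DM lay above both other groups. Its log2 difference in BMP2+DM against BMP2, 2.08 ± 0.92, missed the threshold (edgeR adjusted p = 0.190).

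By role, the summed levels of the genes described above ordered the groups in different ways. The resident macrophage genes had a mean of 17.6 ± 0.832 CPM in PBS, 9.32 ± 0.0571 in BMP2 and 9.02 ± 1.53 in BMP2+DM (SD, n = 2), and the lysosomal and oxidative genes 81.4 ± 3.38, 53.5 ± 1.58 and 58.2 ± 0.0143. In both, PBS stood above the treated groups. The lineage genes had 24.7 ± 0.064, 22.6 ± 0.079 and 15.7 ± 0.384, and the integrins, actin regulators and surface genes 26.5 ± 1.48, 18.6 ± 0.808 and 13.4 ± 2.78. These 2 groups were lowest in BMP2+DM. In each of these sums a single gene held the largest part of the PBS mean. In the order given these were Pf4 at 13.2 CPM, Lyz2 at 58.55, Csf1r at 16.85 and Lcp1 at 14.7. The sums therefore mainly follow these genes rather than every gene of a role. The Fc receptor and C1q sums overlapped between PBS and the other groups or had PBS libraries far apart, at 9.36 and 5.57 CPM for the Fc receptor genes and 2.29 and 1.31 CPM for C1q.

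**Figure D4:**
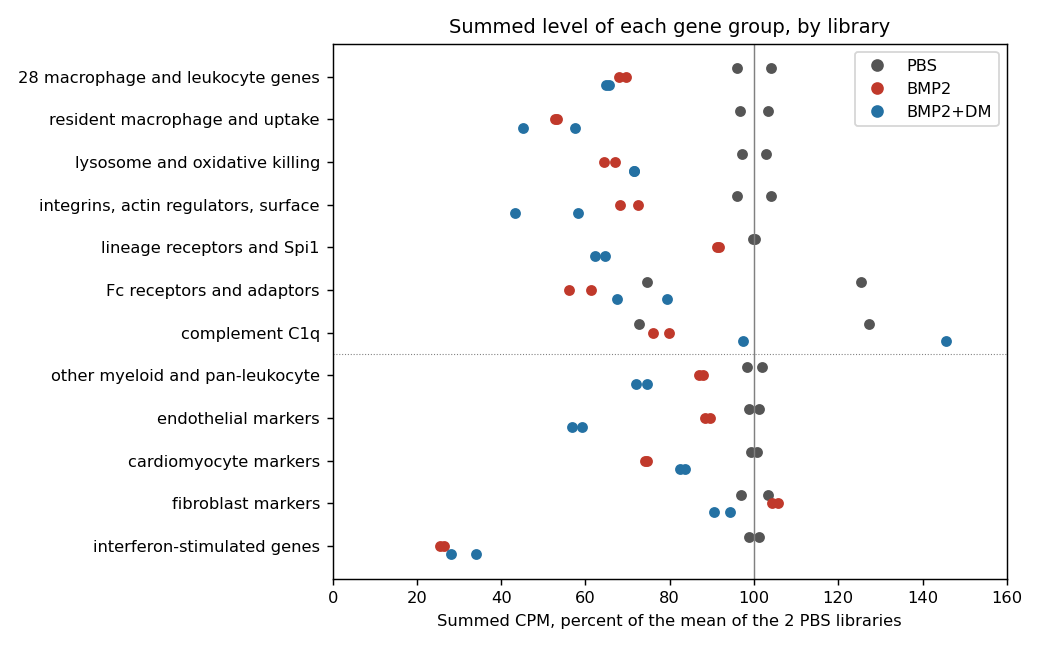
Summed CPM of gene groups in each library, as percent of the mean of the 2 PBS libraries; points are libraries, the vertical line is the PBS mean, and groups below the dotted line hold none of the 28 genes. The 28 genes sit at 65.2% to 68.8% of PBS in the treated group means, endothelial markers are lowest in BMP2+DM, and interferon-stimulated genes are at 25.9% in BMP2.

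A further list of 40 myeloid and pan-leukocyte genes that does not include the 28, of which 39 were in the files and 20 were tested, was set beside them. By edgeR, 1 of the 20 (5%) fell and 1 rose in BMP2 against PBS, below the 9.29% and 6.55% of all tested genes, with 4 lower and 1 higher at an unadjusted p under 0.05. In BMP2+DM against BMP2, 2 (10%) fell and 0 rose, against 4.44% and 4.28% of all tested genes. In BMP2+DM against PBS, 4 (20%) fell and 0 rose, against 11.5% and 9.38%. At an unadjusted p under 0.05 these 2 comparisons had 3 and 7 lower and 0 and 1 higher. Its summed level was 262 and 272 CPM in PBS, 234 and 232 in BMP2, and 199 and 192 in BMP2+DM, with Arhgdib, a leukocyte gene also expressed by endothelium, at 128 to 190 CPM of it. The difference between this list and the 28 genes was not tested.

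Mpeg1, which encodes the pore-forming perforin-2 of phagocytes, had 203 and 84 counts in PBS, 64 and 50 in BMP2, and 42 and 35 in BMP2+DM. PBS 1 was the highest by far, and both PBS libraries lay above all treated libraries. Mpeg1 fell in BMP2 (log2 fold change -1.05 ± 0.30, edgeR adjusted p = 0.0233) and in BMP2+DM against PBS (-1.55 ± 0.32, adjusted p = 0.0016). Without PBS 1 these were -0.46 (adjusted p = 0.490) and -0.97 (adjusted p = 0.0931). In BMP2 the call was also lost with DESeq2 (adjusted p = 0.0724) and without BMP2 1 (0.0627) or BMP2 2 (0.152) as adjusted p.

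Marco, a scavenger receptor gene, fell in BMP2+DM against PBS (log2 fold change -1.01 ± 0.23, edgeR adjusted p = 0.0046), and Arhgdib fell in BMP2+DM against BMP2 (-0.30 ± 0.07, adjusted p = 0.0110) and against PBS (-0.49 ± 0.07, adjusted p = 4.32e-05). The first Arhgdib call was lost without BMP2 1 (adjusted p = 0.119) or BMP2+DM 2 (0.0671). Without PBS 1 and BMP2 1 together, every call of Mpeg1, Marco and Arhgdib was lost except that of Arhgdib in BMP2+DM against PBS.

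Most of the tested genes of a list of ligands linked to macrophages fell in both treated groups. Ccr2, a receptor gene for the listed Ccl2 and Ccl7, had 0 counts in every library. Tgfb1, also listed, has no receptor gene among the 34 genes. Csf1, the growth factor of Csf1r, had 984 and 976 CPM in PBS, 703 and 700 in BMP2, and 602 and 631 in BMP2+DM, with no overlap between groups. Per length, Csf1 averaged 145 CPM per kilobase of exon over the 6 libraries, Csf1r 2.76 and Il34, the other ligand gene of Csf1r, 0.921. Csf1 fell in BMP2 against PBS (log2 fold change -0.48 ± 0.05, edgeR adjusted p = 2.35e-06), in BMP2+DM against BMP2 (-0.19 ± 0.05, adjusted p = 0.0294) and in BMP2+DM against PBS (-0.67 ± 0.05, adjusted p = 2.74e-08). The call between the treated groups was lost without each of BMP2 1 (adjusted p = 0.126), BMP2 2 (0.111), BMP2+DM 1 (0.201) and BMP2+DM 2 (0.0597).

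Of the 9 ligand genes listed, Ccl12 was at 0 in every library and 8 were tested. In BMP2 against PBS 6 fell and 0 rose, against 9.29% of all tested genes called lower and 6.55% called higher. Besides Csf1 these were the monocyte chemokine genes Ccl2 (-0.82 ± 0.06) and Ccl7 (-0.83 ± 0.08), Cx3cl1 (-1.03 ± 0.18), the integrin ligand gene Icam1 (-0.97 ± 0.13) and C3 (-1.40 ± 0.17), the central complement component. At an unadjusted p under 0.05 the number was 7, all lower. Against PBS, BMP2+DM also had 6 lower and 0 higher, against 11.5% and 9.38% of all tested genes. These held Tgfb1 (-0.41 ± 0.14, edgeR adjusted p = 0.0427) in place of C3 (0.22 ± 0.15, adjusted p = 0.352).

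C3 rose again with dorsomorphin. It had 25.5 and 23.2 CPM in PBS, 8.37 and 10.1 in BMP2, and 26.4 and 30.4 in BMP2+DM. The BMP2 libraries were below both other groups. The log2 fold change in BMP2+DM against BMP2 was 1.62 ± 0.17 (edgeR adjusted p = 5.55e-06). Cx3cl1, the ligand gene of the fractalkine receptor, whose own gene Cx3cr1 had 2 counts in all, fell further in BMP2+DM against BMP2 (-0.66 ± 0.20, adjusted p = 0.0488), a call lost in 9 of 13 alternative analyses, among them the fits without PBS 1 (adjusted p = 0.0733), PBS 2 (0.0771), BMP2 1 (0.407), BMP2+DM 1 (0.129) or BMP2+DM 2 (0.152).

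Markers of other blood cells were at or near 0. Of 15 lymphocyte and natural killer cell markers, 11 had 0 counts in every library, and the list summed to 2 to 14 counts per library, most of them from Lck. Erythroid genes summed to 2 to 17 counts, led by Hbb-bs, and mast cell markers to 4 to 13, led by Mcpt4. None of these lists had a gene that could be tested. Of the dendritic cell markers, Flt3 was at 0 in every library, and nearly all of the list's counts came from Zbtb46, a transcription factor gene also active in endothelium. Granulocyte markers summed to 2 to 4 counts in the PBS and BMP2+DM libraries and to 23 and 25 in the BMP2 libraries. Within them S100a9, which encodes a calcium-binding protein of neutrophils and monocytes, had 0 counts in PBS and BMP2+DM and 10 and 10 in BMP2, at least 7.91-fold higher than PBS over the group. S100a8, its partner, had 2 and 5 in BMP2 and 0 elsewhere.

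Of 7 genes of MHC class II antigen presentation, 3 were tested and 0 were called in any comparison by edgeR. H2-DMa, a peptide-loading chaperone gene, had 4.36 and 3.74 CPM in PBS, 7.002 and 7.06 in BMP2, and 8.04 and 6.02 in BMP2+DM, and 1 of the 3 genes had an unadjusted p under 0.05 in each comparison with PBS. H2-Ab1, a class II beta chain gene, had 5 and 2 counts in PBS, 4 and 52 in BMP2, and 0 and 0 in BMP2+DM, so that 1 library held nearly all of its counts.

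Marker lists of other heart cells also held called genes in the same comparisons, here given for BMP2 and BMP2+DM against PBS. Of all tested genes, 9.29% were called lower and 6.55% higher in BMP2, and 11.5% and 9.38% in BMP2+DM. Cardiomyocyte markers summed to 74.3% of PBS in BMP2 and 83.1% in BMP2+DM, with 10 and 8 of 11 lower. Endothelial markers, of which Ptprb, Emcn and Kdr had the smallest p, summed to 88.9% and 58.1%, with 1 higher and 1 lower of 9 in BMP2 and 0 higher and 6 lower in BMP2+DM. The endothelial list was thus lowest in BMP2+DM. Epicardial markers such as Krt18 and Upk3b stood at 65.6% and 73.4%, with 5 and 4 of 8 lower, and smooth muscle markers such as Acta2 and Cnn1 at 59.3% and 61.7%, with 4 and 3 of 5 lower. Fibroblast markers, among them Col3a1 and Postn, stood at 105% and 92.5%, with 2 higher and 5 lower of 9 in BMP2 and 3 higher and 5 lower in BMP2+DM. Of these lists the fibroblast markers were nearest to their PBS level in BMP2. Interferon-stimulated genes, of which Ifit1, Ifit3 and Cxcl10 had the smallest p, stood at 25.9% and 31.1% of PBS, with 14 of 14 lower in both. The part of these changes in the macrophage gene values was not tested.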

How the data were processed

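RNA of 6 libraries was measured, and for each the authors deposited a file of unnormalised counts by gene symbol. Trimmomatic, STAR, HTSeq, FastQC and DESeq2 are the tools listed, and mm10 the build, per the submitters' processing notes. The sources used here name no version, annotation, strand setting or read layout. The 5 summary lines of each file (53.8% to 54.2% of its total) were left out. Most of this was the line for reads without a feature, at 49.69% to 50.15% of the total. The cause of that share was not tested. The genes and lists described here were chosen with earlier results of these data known.

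All 6 libraries were fitted with group means and no covariate (3 residual degrees of freedom) in edgeR 4.0.16 (R 4.3.3), using TMM factors, filterByExpr (minimum count 10, minimum total 15) and the quasi-likelihood F test, with Benjamini-Hochberg adjustment over 14378 genes and a threshold of 0.05. Standard errors were derived from the F statistic and the log2 fold change. Levels are CPM, as mean ± SD over 2 libraries, and per-length levels divide by the exonic kilobases of GENCODE vM21, which held 97.7% of the symbols. Floors cover counting error only. Over genes with at least 10 counts in a pair, without the ribosomal-repeat models, the chi-square per degree of freedom between the 2 libraries of a group was 3.58 to 4.27, above sampling noise, so each counted as 1 sample. Every gene passing the rule is named, those past the threshold with all library values, and up to 4 genes of each other list, some of which are not reported here.

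Alternatives were RLE factors, no low-count filter, DESeq2 1.42.0, the replicate number as a block, only the 2 groups compared, leaving out each library, leaving out PBS 1 and BMP2 1, and leaving out the ribosomal-repeat models.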

Additional observations from a re-analysis of the deposited data

How the results depend on the processing

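Directions held in most analyses while calls often did not. Over the single genes given with a fold change, 603 alternative values kept direction and side of the threshold, 75 lost the call, 10 gained it and 9 changed sign. Counts of called genes and summed levels stayed within the margin in 93 alternative values and moved in 36. For counts the margin was a set ratio to the main count, and for a summed level it was the SD of its group. With n = 2, leaving out 1 library cannot move a group mean past that SD, so those values say nothing of stability. Both scalings (TMM and RLE) kept every member call. With DESeq2 the macrophage genes called lower were 3 in BMP2 against PBS, 0 in BMP2+DM against BMP2 and 3 in BMP2+DM against PBS, with 0 higher in BMP2+DM against BMP2, where its adjusted p for Ms4a7 was not given. Fitting only the 2 groups compared also gave 0 higher there, because Ms4a7 did not pass the filter. Without PBS 1 and BMP2 1 together, those called lower were 0, 0 and 1, those higher in BMP2+DM against BMP2 were 0, and all genes called were 574, 313 and 1388. Leaving out 1 library at a time, genes called ranged from 1318 to 2470 in BMP2 against PBS, 670 to 1081 in BMP2+DM against BMP2 and 1827 to 2928 in BMP2+DM against PBS, and the macrophage genes called lower from 1 to 7, 0 to 1 and 2 to 6, with 0 to 0 higher in BMP2+DM against BMP2. A group left with 1 library is assumed to vary like the others. These fits also changed the sign of Cd68 (-0.080 to 0.50), Fcer1g (-1.26 to 3.33, and 3.66 without PBS 1 and BMP2 1) and Mrc1 (-0.14 to 0.21) in BMP2 against PBS, and of Lyz2 (-0.042 to 0.16), Pf4 (-0.65 to 0.11) and Cybb (-0.13 to 0.50) in BMP2+DM against BMP2, none of them called. The cause of these shifts was not tested. With the replicate number as a block, 6, 2 and 6 macrophage genes were called, Itgam being added in BMP2+DM against PBS. Over the tested genes, libraries of the same number did not deviate together (correlations 0.0248, -0.0227 and -0.0376), which cannot exclude a shared preparation. The summary lines took 54.23% in BMP2 1 and BMP2+DM 1 and 53.95% in BMP2 2 and BMP2+DM 2, but 53.81% and 54.08% in PBS 1 and PBS 2. Whether the number marks a pairing was not tested. At 10106667 to 14366042 gene counts per library, 8 of the 28 macrophage genes were too low to test.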
